A study of Mus musculus with 15 samples.

Results

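The medium by day interaction asks whether CDL and RDL, a pair of media that activate Wnt signalling, differed by the same amount in cells sorted at day 6 as in cells sorted at day 4 of differentiation from mouse embryonic stem (ES) cells. It rests on 12 of the 15 Affymetrix expression arrays of the series, 3 for each medium at each day. It is (CDL day 6 minus RDL day 6) minus (CDL day 4 minus RDL day 4) on a log2 scale, so an interaction above 0 means that the CDL minus RDL difference was larger at day 6 than at day 4. The arrays were chosen by their labels alone, and every gene that passed a filter on dim signals was tested.

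The CDL day 6 group held Pax3GFP+ cells of ES cell line CK35, strain 129Sv, grown with CHIRON99021 at 1 µM, an inhibitor of the kinase GSK3. RDL day 6 cells were Pax3GFP+ cells of the same line and strain, for which the secreted Wnt agonist Rspo3 at 10 ng/ml took the place of CHIRON99021. The CDL day 4 and RDL day 4 groups came from the same media but from ES cell line E14, strain 129P2, and were sorted as Msgn1repV+. All 4 groups had been started in serum-free medium for 2 days with 10 ng/ml of BMP4, and both media then carried 0.5% DMSO and LDN193189, an inhibitor of BMP receptors, at 0.1 µM. The sample labels write this inhibitor's number in 3 ways across the groups, while the protocol names 1 compound. Day 6 thus differed from day 4 in line, strain and sort reporter as well, and these cannot be told apart in the interaction. Within a day the media were compared in 1 line and 1 sort. The labels call the 3 arrays of a group biological replicates without saying that they came from separate cultures, so the p-values measure the spread between these arrays. The other 3 arrays held unsorted E14 ES cells at day 0, grown with LIF and the inhibitors CHIRON99021 and PD0325901, and entered no comparison.

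R-spondins such as Rspo3 bind LGR receptors and remove the ubiquitin ligases Znrf3 and Rnf43 from the membrane, which keeps Frizzled receptors on the cell surface and strengthens the response to Wnt ligands. Inhibition of GSK3 stabilises β-catenin inside the cell without a ligand. In the embryo, cells of the posterior presomitic mesoderm express Msgn1, Tbx6 and the Notch ligand Dll1 under high Wnt and FGF signalling. They then turn on boundary genes such as Mesp2 and Ripply2, and form somites that express Meox1, Tcf15, Uncx and Pax3.

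Presomitic markers were brighter at day 4, the Msgn1repV+ sort, and somite markers at day 6, the Pax3GFP+ sort. Signals of the presomitic markers Msgn1, Tbx6, Dll1 and Hes7 summed to between 403 and 639 on CDL day 6 arrays, 131 and 197 on RDL day 6 arrays, 3285 and 4640 on CDL day 4 arrays, and 3566 and 4119 on RDL day 4 arrays. The day 6 gap between the media lay mostly in Dll1, at 299.5, 529 and 315 in CDL, against 44.1, 105 and 85 in RDL. Tbx6 overlapped between the media at day 6, and Msgn1 and Hes7 reached at most 44.3 and 39.6 there. The somite markers Pax3, Meox1, Tcf15 and Dmrt2 summed to between 3055 and 4871 on CDL day 6 arrays, 2302 and 3082 on RDL day 6 arrays, 224 and 275 on CDL day 4 arrays, and 1044 and 1277 on RDL day 4 arrays. Median signals lay between 29.6 and 31.2 on the 12 arrays, and each array's mean correlation with the other arrays of its group, over genes, lay between 0.976 and 0.995. RDL day 6 replicate 1 had the lowest correlation. CDL day 4 replicate 1 carried ES cell markers: the 7 of them summed to 12833 there, against 2906 to 3025 on its mates and 30550 to 30921 on the ES arrays, and Nanog read 1441 there, against 40.9 and 41.4 on its mates. In bulk RNA of sorted cells, fewer cells of a type and less RNA per cell cannot be told apart.

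Of 11898 genes tested, 513 (4.31%) had an interaction at an adjusted p under 0.05, 213 (1.79%) above 0 and 300 (2.52%) below 0, and 113 and 128 of these were at least 2-fold. Differences are log2(signal + 12.6) values, on which the change of a dim gene comes out too small, and each is given ± its standard error (SE) from limma, with 3 arrays in each group (n = 3). The median interaction over all genes was -0.000247. CDL against RDL called 749 genes at day 6 (6.30%, 356 or 2.99% higher and 393 or 3.30% lower) and 404 at day 4 (3.40%, 262 or 2.20% higher and 142 or 1.19% lower). Without CDL day 4 replicate 1 the interaction was called in 427 genes, 395 of them among the 513, and without RDL day 6 replicate 1 in 898, 506 of them among the 513.

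Most interaction genes were called between the media on 1 day only. A difference that did not pass at the other day is not shown to be absent. Plk2, called at day 6 only, had limma differences of 0.51 ± 0.14 at day 6 (adjusted p = 0.0457) and -0.46 ± 0.14 at day 4 (adjusted p = 0.116). Of the 213 genes above 0, 123 (57.7%) were called between the media at day 6 only, 50 (23.5%) at day 4 only, 15 at both days in opposite directions, 1 at both in the same direction and 24 at neither. The 300 genes below 0 divided into 169 (56.3%), 95 (31.7%), 9, 3 and 24 in the same order. Of the 213, 144 (67.6%) had their highest group mean in CDL day 6 cells and 58 (27.2%) in RDL day 4 cells, against 24.0% and 20.2% of all genes. Of the 300, 147 (49.0%) had it in RDL day 6 cells and 144 (48.0%) in CDL day 4 cells, against 25.4% and 30.4% of all genes. The interaction adds CDL day 6 and RDL day 4 and subtracts the other groups, so choosing genes by it already favours these groups. Across all 11898 genes the 2 differences correlated at r = 0.108 (Spearman's rho 0.107), taken over genes, and genes are no independent replicates. The days share no arrays.

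**Figure D1:**
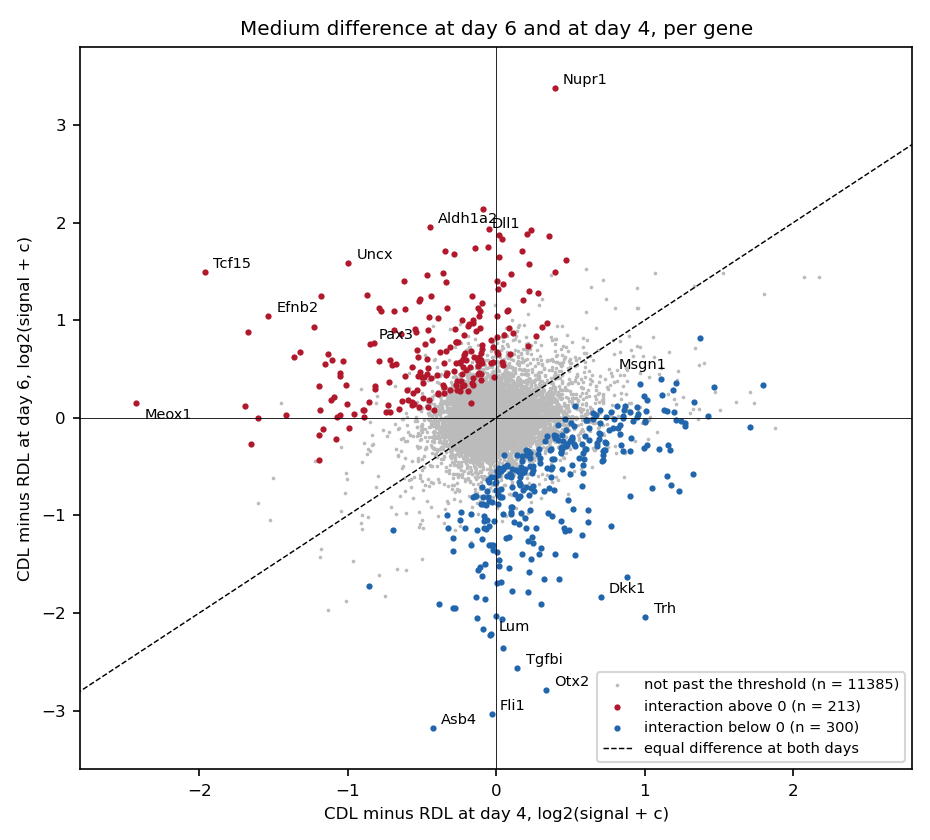
Each point is 1 of 11898 genes, with the CDL minus RDL difference at day 4 on the x axis and at day 6 on the y axis, both on the log2(signal + c) scale with c = 12.6. Red points (213) have an interaction above 0 and blue points (300) one below 0 at adjusted p under 0.05, and the dashed line marks equal differences at both days. Tcf15 and Efnb2 lie in the upper left, below RDL at day 4 and above it at day 6, while Trh lies in the lower right.

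Of the 15 tested genes of segmentation and the somite, 9 had an interaction above 0 and 1 below 0, against 1.79% and 2.52% of all genes, with a median of 1.81. The same shares of all genes stand beside every list count below, and 1 called member of a long list can lie near them. The lists were written with earlier results of these data known, so a count above these shares is no independent support. By the definition of the interaction, any gene above 0 is higher in CDL than in RDL at day 6, lower at day 4, or both. The list's median difference was 0.12 at day 6 and -1.0 at day 4. Among the 15 genes with the largest interaction above 0, 7 were members of this list.

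Tcf15 (paraxis), a bHLH factor needed for somites to become epithelial, gave signals of 1001, 1408 and 834 on CDL day 6 arrays, against 256, 466 and 411 on RDL day 6 arrays. At day 4 the signals were 101, 75.8 and 97.6 in CDL, against 313, 461 and 411 in RDL. All CDL arrays lay above all RDL arrays at day 6 and below them at day 4. The CDL minus RDL difference was 1.5 ± 0.23 at day 6 (adjusted p = 0.00112) and -1.96 ± 0.23 at day 4 (adjusted p = 0.000349), and the interaction was 3.46 ± 0.33 (adjusted p = 4.84e-05), the largest above 0. Efnb2, the ephrin ligand of the somite boundary, had the same order of groups. It read 847, 1299.7 and 765 in CDL and 263, 643 and 545 in RDL at day 6. Its day 4 signals were 174, 247 and 263 in CDL and 601, 764 and 669.9 in RDL. The groups did not overlap at either day, and both differences passed (1.04 ± 0.28 and -1.54 ± 0.28), as did the interaction of 2.58 ± 0.4 (adjusted p = 0.00195).

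Meox1, a homeobox gene of the early somite, differed between the media at day 4. Its signals were 102, 84.8 and 105 in CDL day 4 cells, against 662, 618 and 463 in RDL day 4 cells, a difference of -2.42 ± 0.17 (adjusted p = 6.5e-06). At day 6 they were 2057, 2538 and 1595 in CDL and 1708, 2047 and 1725 in RDL. The day 6 groups overlapped, with a difference of 0.15 ± 0.17 (adjusted p = 0.735), and the interaction was 2.58 ± 0.24 (adjusted p = 4.84e-05). Dmrt2, which patterns the somite and its dermomyotome, read 8.03, 11.6 and 9.63 in CDL day 4 cells, against 40.8, 93 and 50.8 in RDL day 4 cells. At day 6 its signals of 250.8, 307 and 193 in CDL and 85.8, 203 and 119 in RDL overlapped. Its interaction was 2.55 ± 0.39 (adjusted p = 0.00184). Foxc2, a forkhead factor needed with Foxc1 for somite formation, was likewise lower in CDL at day 4, where its signals were 198, 298 and 439 in CDL, against 802, 698 and 779 in RDL, with an interaction of 1.99 ± 0.42 (adjusted p = 0.0163). Foxc1 itself had an interaction of 0.53 ± 0.42 (adjusted p = 0.665).

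Uncx, a homeobox gene of the posterior somite, and Aldh1a2, the enzyme that makes retinoic acid, were called between the media at day 6. Uncx read 968, 1748 and 769 in CDL day 6 cells and 175, 543 and 465 in RDL day 6 cells. At day 4 it was dim, with 7.07, 8.72 and 9.25 in CDL and 20.1, 35.3 and 33.9 in RDL. CDL lay above RDL on all arrays at day 6 and below it on all arrays at day 4, where the difference of -1.0 ± 0.36 did not pass (adjusted p = 0.2). The interaction was 2.58 ± 0.5 (adjusted p = 0.00982). Aldh1a2 read 1120.0, 1219 and 1022 in CDL day 6 cells and 214, 338 and 299.8 in RDL day 6 cells, and at day 4 1245, 1482 and 1629 in CDL and 1995, 1872 and 2056 in RDL. RDL day 6 cells had the lowest signals of the 4 groups. Its interaction was 2.4 ± 0.21 (adjusted p = 3.63e-05), with a day 6 difference of 1.95 ± 0.15.

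**Figure D2:**
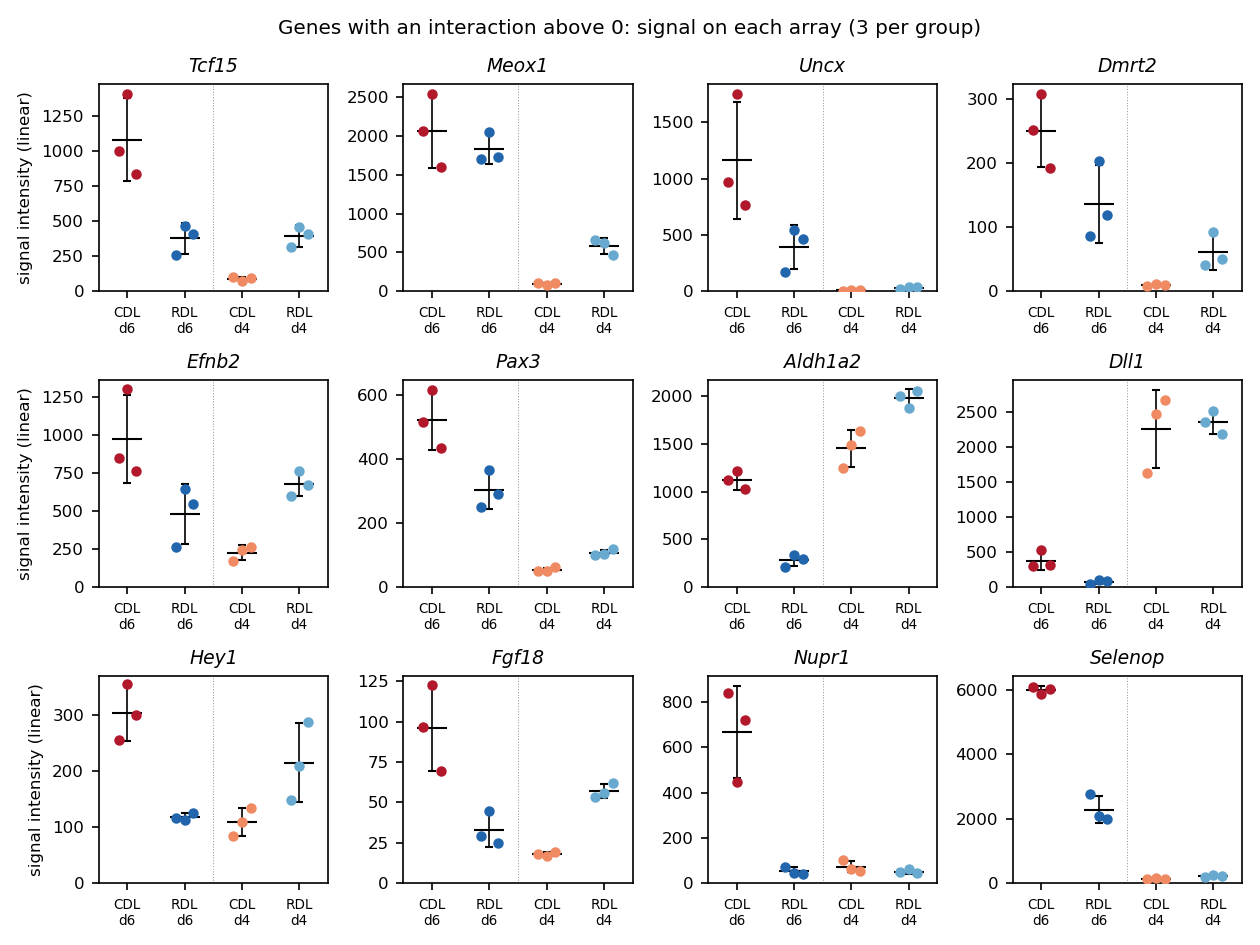
Signal intensity on a linear scale on each array (points) for 12 genes with an interaction above 0, with the mean and SD of the 3 arrays of each group (bars). Groups run CDL day 6, RDL day 6, CDL day 4, RDL day 4. Tcf15, Efnb2 and Pax3 are higher in CDL than in RDL at day 6 and lower at day 4, Meox1 differs at day 4, and of these 12 arrays the 3 of CDL day 6 are the highest for Nupr1.

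Ripply2, Mesp2 and Epha4, members of the list outside the naming rule, were picked out after their values were seen. Ripply2, a repressor that ends the segmentation programme at the boundary, read 9.42, 10.5 and 12.5 in CDL day 4 cells, against 65.5, 51 and 73.8 in RDL day 4 cells, and lay between 6.12 and 12.6 on the day 6 arrays, so RDL day 4 stood above the other groups. Its interaction was 1.81 ± 0.17 (adjusted p = 4.84e-05), with a day 4 difference of -1.69 ± 0.12. Ripply2 passed the filter through the RDL day 4 arrays alone, so the separation of that group was fixed by the filter. Mesp2, which sets the position of the boundary, read 52.9, 60 and 78.7 in CDL day 4 cells, against 129, 218 and 241 in RDL day 4 cells, and had an interaction of 1.45 ± 0.32 (adjusted p = 0.0196), which passed in 8 of the 12 fits with 1 array left out. Epha4, a receptor of ephrins at the boundary, was the member below 0: it read 80.5, 114 and 119.8 in CDL and 229, 274 and 258 in RDL at day 6. In day 4 cells it read 487, 449 and 513 in CDL and 313, 305 and 339.7 in RDL. CDL lay below RDL at day 6 and above it at day 4 on all arrays, opposite to Efnb2, with an interaction of -1.77 ± 0.19 (adjusted p = 0.000129).

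Pax3 and Msgn1 are the genes of the sort reporters. Pax3, a paired-box factor of the dermomyotome, read 515, 618 and 435 in CDL day 6 cells, against 252, 366 and 292 in RDL day 6 cells. On day 4 arrays it gave 49.8, 51.6 and 62.7 in CDL, against 101, 105 and 119 in RDL. The groups did not overlap and lay in opposite orders at the 2 days, with differences of 0.76 ± 0.16 and -0.85 ± 0.16 and an interaction of 1.61 ± 0.22 (adjusted p = 0.000789). The day 6 cells were sorted on a reporter of this gene. Msgn1, the bHLH factor that marks presomitic cells, read 44.3, 43.9 and 43.6 in CDL day 6 cells, against 29, 31.1 and 25.9 in RDL day 6 cells. Its day 4 signals were 366, 334 and 312 in CDL, against 241, 198 and 148 in RDL. CDL lay above RDL on all arrays at both days. The day 4 difference of 0.77 ± 0.14 passed (adjusted p = 0.00763), the day 6 difference of 0.46 ± 0.14 did not (adjusted p = 0.0863), and the interaction of -0.32 ± 0.2 did not pass (adjusted p = 0.56).

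In the dermomyotome and muscle list 5 of 13 tested members had an interaction above 0 and 1 below 0, with a median of 0.71. Besides Dmrt2 and Pax3 these were Myf5, Eya1 and Met, the receptor of migrating muscle progenitors, which was picked out after its value was seen (1.02 ± 0.21, adjusted p = 0.0147). Myf5, the first myogenic factor of the somite, read 91.1, 55.4 and 77.1 in CDL day 6 cells, against 32, 35.4 and 32.4 in RDL day 6 cells, and its interaction was 1.19 ± 0.22 (adjusted p = 0.00634). Eya1, a transcription cofactor, differed at day 4, with 63.1, 53.8 and 46.8 in CDL, against 124, 156 and 134 in RDL, and had an interaction of 1.05 ± 0.22 (adjusted p = 0.0135). Its relative Eya4, picked out after its value was seen, was the member below 0, at -0.92 ± 0.12 (adjusted p = 0.00042), and was lower in CDL at day 6, where it read 20.8, 17.9 and 22.5 in CDL, against 42.1, 43.3 and 41.6 in RDL. In the sclerotome and tendon list the 2 of 10 members that passed were Uncx and Foxc2, and Pax1 and Pax9, which define the sclerotome, had interactions of 0.36 and -0.2 that did not pass.

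Of 19 tested genes of the Notch pathway, whose signalling drives the segmentation clock, 5 had an interaction above 0 and 0 below 0, and all 5 were higher in CDL than in RDL at day 6. The list had a median of 0.62. The count was 3 without CDL day 4 replicate 1 and 2 without RDL day 4 replicate 2 or replicate 3. The ligand Dll1 read 299.5, 529 and 315 in CDL day 6 cells, against 44.1, 105 and 85 in RDL day 6 cells. At day 4 it was brighter and the media overlapped, with 1629, 2467 and 2674 in CDL and 2354, 2519 and 2186 in RDL. Its difference was 2.14 ± 0.27 at day 6 and -0.09 ± 0.27 at day 4, and the interaction was 2.23 ± 0.38 (adjusted p = 0.004).

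Hey1, a repressor induced by Notch, read 255, 356 and 300.4 in CDL day 6 cells, against 116, 114 and 126 in RDL day 6 cells. The order was opposite at day 4, with 84.6, 110.1 and 135 in CDL, against 149, 209 and 288 in RDL. The media did not overlap at either day, and the interaction was 2.13 ± 0.29 (adjusted p = 0.000804). Nrarp, a feedback inhibitor of Notch, read 169, 285 and 153 in CDL day 6 cells, against 63.7, 83.9 and 78.3 in RDL day 6 cells, and had an interaction of 1.69 ± 0.38 (adjusted p = 0.0226). Heyl and Hey2, relatives of Hey1, had interactions of 1.05 ± 0.25 (adjusted p = 0.0271) and 0.86 ± 0.21 (adjusted p = 0.0331), Hey2 being picked out after its value was seen. When any 1 array was left out, Nrarp passed in 10 of 12 fits, Heyl in 7 and Hey2 in 6. The receptor Notch1, looked up after its value was seen, was higher in CDL at day 6 (1.15 ± 0.24, adjusted p = 0.011), while its interaction of 1.16 ± 0.35 did not pass (adjusted p = 0.0889). Hes7 and Lfng, which oscillate with the clock, had interactions of 0.25 and 0.04, and neither passed.

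The retinoic acid pathway, which opposes FGF and Wnt signalling in the forming somites, had 3 of 14 tested members above 0 and 2 below 0, and a median of 0.6. Beside Aldh1a2 these were Crabp1, which carries retinoic acid in the cytoplasm, and Dhrs3, a reductase that limits its synthesis. Crabp1 read 1639, 1116 and 1419 in CDL day 6 cells, against 589, 473 and 510.2 in RDL day 6 cells, and overlapped at day 4, with an interaction of 1.33 ± 0.21 (adjusted p = 0.00192). Dhrs3 was higher in CDL at day 6 and lower at day 4 (0.6 ± 0.11 and -0.46 ± 0.11, interaction 1.07 ± 0.15, adjusted p = 0.000984). Crabp2, the other carrier, moved the other way at day 6, where it read 575, 511 and 741 in CDL, against 1443, 1027 and 958 in RDL, and its interaction was -0.9 ± 0.23 (adjusted p = 0.0434). Cyp26a1, which degrades retinoic acid and was looked up after its value was seen, was 1 of 4 called genes that were called in the same direction at both days. It read 185, 208 and 208 in CDL day 6 cells, against 548, 742 and 800.4 in RDL day 6 cells. The day 4 signals were 213, 208 and 181 in CDL, against 412, 362 and 350.0 in RDL. CDL was lower at both days, by more at day 6, with an interaction of -0.86 ± 0.2 (adjusted p = 0.0255). In the fits that left 1 array out, Crabp2 passed in 3 of 12 fits and Cyp26a1 in 4. The count above 0 was 5 without CDL day 4 replicate 2 and 5 with a replicate block.

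Posterior presomitic genes did not share a direction. Of 17 tested members 3 had an interaction above 0 and 2 below 0, with a median of 0.1. Fgf18, a ligand of the FGF pathway, read 96.5, 122 and 69.4 in CDL day 6 cells, against 29.2, 44.9 and 24.7 in RDL day 6 cells. At day 4 it read 18, 17 and 19.4 in CDL, against 53.1, 55.8 and 61.7 in RDL. Both days separated the media, in opposite orders, and the interaction was 2.43 ± 0.24 (adjusted p = 6.63e-05). Dll1 is also a member. Hoxb1, an anterior Hox gene, read 213, 278 and 159 in CDL day 6 cells, against 45.8, 75 and 63.3 in RDL day 6 cells, and had an interaction of 1.15 ± 0.27 (adjusted p = 0.027), which passed in 6 of the 12 fits with 1 array left out. On the untransformed signal its interaction was -408 units, and at day 4 it read 2139, 2125 and 1859 in CDL and 1418, 1716 and 1299.8 in RDL. Tbx6 and Hes7, which with Msgn1 define the presomitic mesoderm, had interactions of -0.22 and 0.25 that did not pass.

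Of 16 tested primitive streak and tail bud genes 5 were below 0 and 1 above 0, and 4 of the 5 had a higher signal in CDL than in RDL at day 4. The list had a median of -0.68, and its count below 0 was 8 without RDL day 6 replicate 1. Evx1, a homeobox gene of the posterior streak, read 304, 393 and 356 in CDL day 4 cells, against 160.0, 198 and 219 in RDL day 4 cells. Mixl1, a homeobox gene of the streak, read 1173, 1169.7 and 1129 in CDL day 4 cells, against 726, 647 and 765 in RDL day 4 cells. Neither overlapped at day 4 and both overlapped at day 6, with interactions of -0.9 ± 0.2 (adjusted p = 0.02, passing in 9 of the 12 fits with 1 array left out) and -0.85 ± 0.16 (adjusted p = 0.00619). Cdx4 and Wnt3a, looked up after their values were seen, were also higher in CDL at day 4, with interactions of -0.8 and -0.66. Fgf5, a ligand of the primed epiblast, was called between the media at day 6 instead: it read 13.4, 9.54 and 10 in CDL, against 51.8, 49.7 and 60.7 in RDL, with an interaction of -1.43 ± 0.13 (adjusted p = 4.84e-05). Fgf5 passed the filter through the RDL day 6 arrays alone, so this separation was fixed by the filter. Mesp1, the member above 0, is a bHLH factor of early mesoderm and a close relative of Mesp2. It read 73.4, 111 and 146 in CDL day 4 cells, against 202, 254 and 229.5 in RDL day 4 cells, and its interaction was 1.35 ± 0.26 (adjusted p = 0.009).

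Canonical Wnt targets and feedback genes did not share a direction, with 1 of 19 tested members above 0, 2 below 0 and a median of 0.04. Dkk1, a secreted inhibitor of Wnt co-receptors and itself a Wnt target, read 62.9, 50.6 and 55 in CDL day 6 cells, against 191, 269.9 and 242 in RDL day 6 cells. Its day 4 signals were 136, 295 and 201 in CDL and 93.4, 185 and 96 in RDL. CDL lay below RDL on all arrays at day 6, and the media overlapped at day 4. The day 6 difference was -1.84 ± 0.26 and the interaction -2.54 ± 0.37 (adjusted p = 0.00119). Sfrp1, a secreted protein that binds Wnt ligands, was also lower in CDL at day 6, with 131, 163 and 167 in CDL, against 450.1, 468 and 509 in RDL, and an interaction of -1.43 ± 0.22 (adjusted p = 0.00168). Nkd1, an intracellular inhibitor, read 187, 279.9 and 180.3 in CDL day 6 cells, against 40.2, 93.1 and 81 in RDL day 6 cells, and its interaction of 1.38 ± 0.36 (adjusted p = 0.0451) passed in 2 of the 12 fits with 1 array left out. The targets Axin2 and Lef1, which report the strength of β-catenin signalling in many tissues, had interactions of 0.46 ± 0.34 (adjusted p = 0.637) and 0.67 ± 0.29 (adjusted p = 0.314).

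In limma's fit 0 of the 12 tested R-spondins and receptors passed, and 1 had an unadjusted p under 0.05. The Rspo3 transcript read 163, 111 and 167 in CDL day 6 cells and 101, 78.7 and 99.6 in RDL day 6 cells, a difference of 0.58 ± 0.15 (adjusted p = 0.0313), while at day 4 it read 2003, 2316 and 2304 in CDL and 1824, 1642 and 1735 in RDL. CDL lay above RDL at both days, and the interaction of 0.24 ± 0.21 did not pass (adjusted p = 0.712). Fzd5, a Wnt receptor outside the lists, was among the 15 genes with the largest interaction below 0. It read 28.7, 35.5 and 33.2 in CDL day 6 cells, against 81.8, 169.7 and 145 in RDL day 6 cells. Its day 4 signals were 109, 29.2 and 19.6 in CDL and 16.4, 15.9 and 19.3 in RDL. The array with 109 units was the one that carried ES cell markers, and the ES arrays averaged 601. The interaction was -2.51 ± 0.52 (adjusted p = 0.0141), and -1.94 without that array (adjusted p = 0.0018). Among targets of other signals, 0 of 16 FGF and ERK members (4 at an unadjusted p under 0.05) and 0 of 13 BMP members (0 unadjusted) passed in limma's fit, against 4.31% of all genes.

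Promoter sequence was set beside the genes of the Wnt pathway and the reporters, since the media differ in how they activate TCF/LEF factors. TCF/LEF motifs were searched as CTTTGAT or CTTTGAA on both strands in RefSeq promoters of build GRCm38.p6, from 250 bases before to 50 bases after the start of a gene. Of the 11898 genes tested 9596 had a promoter, and 684 of these (7.13%) held a match, against 15 of 159 genes with an interaction above 0 (9.43%) and 24 of 223 below 0 (10.8%). Among all 32851 RefSeq promoters 8.65% held one. No test was made of these shares. Dkk1 held 1 match and Msgn1, which did not pass, held 2, while no match was found for Pax3, the other reporter gene. Among the genes named by size, 0 of 10 with a promoter above 0 and 3 of 11 below 0 (27.3%) held a match. The 250 bases before each start are chr19:30549497-30549746 for Dkk1 and chr12:11208949-11209198 for Msgn1, both on the minus strand, printed 5′ to 3′ with the matches in capitals.
Dkk1: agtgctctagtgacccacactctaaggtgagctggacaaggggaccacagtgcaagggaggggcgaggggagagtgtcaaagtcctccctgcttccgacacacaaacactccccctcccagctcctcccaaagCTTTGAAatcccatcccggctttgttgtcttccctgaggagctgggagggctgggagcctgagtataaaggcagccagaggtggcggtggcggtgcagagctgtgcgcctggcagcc
Msgn1: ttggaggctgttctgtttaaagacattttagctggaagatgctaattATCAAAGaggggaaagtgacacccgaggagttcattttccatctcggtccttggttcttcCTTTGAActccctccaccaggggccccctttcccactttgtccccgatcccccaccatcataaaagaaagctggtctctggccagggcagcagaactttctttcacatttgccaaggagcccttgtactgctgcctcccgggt
A match is a description of the letters and not a binding site.

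**Figure D3:**
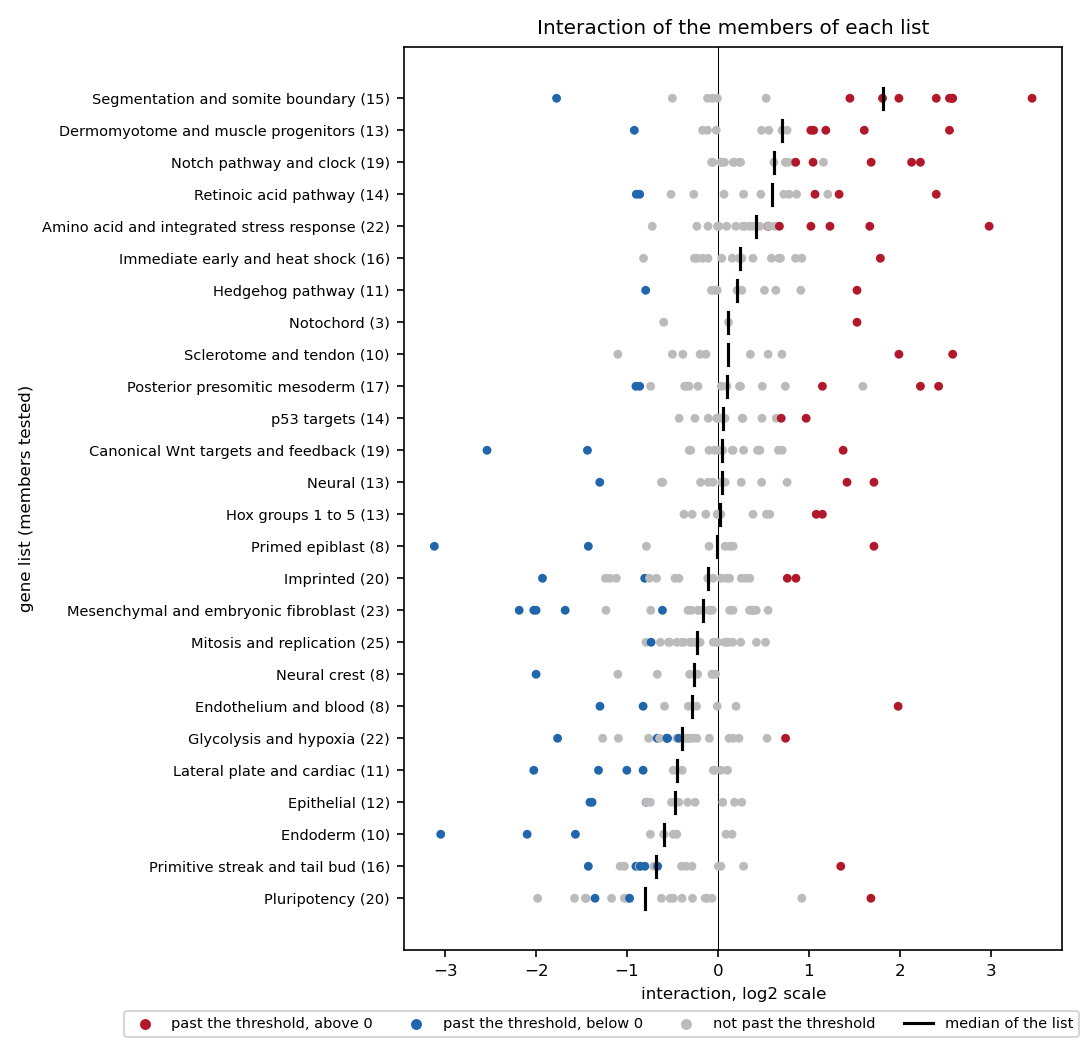
Interaction on the log2 scale (x axis) of every tested member of the 26 gene lists with at least 1 called member (y axis, number tested in brackets), in order of the list median (black bar). Red and blue points passed above and below 0. The segmentation and somite list has 9 red points and 1 blue point, and the lateral plate, epithelial and endoderm lists have called members on the blue side only.

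All 15 genes with the largest interactions below 0 were lower in CDL than in RDL cells at day 6. Otx2, a homeobox factor of the anterior epiblast and forebrain, read 15.9, 17.5 and 17.6 in CDL day 6 cells, against 184, 176 and 216 in RDL day 6 cells. In day 4 cells it read 36.1, 6.7 and 7.2 in CDL and 8.88, 8.31 and 8.12 in RDL. RDL day 6 stood above the other 3 groups on all arrays. Besides these arrays, Otx2 exceeded the array median on CDL day 4 replicate 1 alone. It passed the filter only with the RDL day 6 arrays, so the filter favoured this separation. The day 6 difference was -2.79 ± 0.25 and the interaction -3.12 ± 0.36 (adjusted p = 0.000177), and -2.68 without CDL day 4 replicate 1, the array at 36.1.

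Trh, the precursor of thyrotropin-releasing hormone and a gene of the endoderm list, read 152, 118 and 148 in CDL day 6 cells, against 632, 552 and 654 in RDL day 6 cells. On day 4 arrays it gave 232, 127 and 128 in CDL, against 54.7, 73.9 and 89.4 in RDL. The media separated in opposite orders at the 2 days, with an interaction of -3.05 ± 0.3 (adjusted p = 5.34e-05), and -2.78 without CDL day 4 replicate 1. Sox17, a determinant of endoderm, read 25.4, 26.6 and 26.9 in CDL day 6 cells, against 49.7, 117 and 119.9 in RDL day 6 cells, with an interaction of -1.57 ± 0.29 (adjusted p = 0.00748). Spink1, a secreted inhibitor of serine proteases, read 72.7, 35.4 and 67.1 in CDL day 6 cells, against 359.8, 204 and 279 in RDL day 6 cells, with an interaction of -2.1 ± 0.29 (adjusted p = 0.000804). In the endoderm list these were the 3 of 10 that passed, all below 0, with a median of -0.59, and without RDL day 6 replicate 1 there were 5. Foxa2, another determinant of endoderm, had an interaction of -0.6 ± 0.18 that did not pass (adjusted p = 0.104). The endoderm markers Sox17, Foxa2, Cer1 and Afp summed to between 165 and 210 on CDL day 6 arrays and 336 and 428 on RDL day 6 arrays. Cer1 read 117, 88.9 and 74.4 in CDL and 219, 206 and 216 in RDL there. Foxa2 and Afp overlapped between the media at day 6, so the sums do not show a shift common to the markers. Sox17 passed the filter through the RDL day 6 arrays alone, so its separation was fixed by the filter. Afp lay at or below the array median on all 12 arrays. The part of such cells in these results was not tested.

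The mesenchymal and lateral plate genes that passed were also lower in CDL than in RDL at day 6. Lum, the matrix proteoglycan lumican, read 38.2, 26.3 and 51.7 in CDL day 6 cells, against 269, 199 and 205 in RDL day 6 cells, and between 10.5 and 13.3 on the 6 day 4 arrays. Prrx1, a homeobox factor of limb and lateral plate mesenchyme, read 47.8, 50.1 and 48.3 in CDL day 6 cells, against 193, 258 and 269 in RDL day 6 cells, and between 14.6 and 20.8 at day 4. Both genes separated the media at day 6 and overlapped at day 4, with interactions of -2.19 ± 0.22 (adjusted p = 6.53e-05) and -2.03 ± 0.17 (adjusted p = 2.24e-05). Lum passed the filter only with the RDL day 6 arrays, so the filter favoured its separation at day 6. Snai2 (Slug), a repressor of epithelial genes, read 195, 189.6 and 216 in CDL day 6 cells, against 725, 682 and 760.0 in RDL day 6 cells, with an interaction of -2.0 ± 0.22 (adjusted p = 0.00015). Pdgfra, the PDGF receptor of mesenchyme, read 791, 649 and 759 in CDL day 6 cells, against 1952, 2149 and 1942 in RDL day 6 cells, with an interaction of -1.68 ± 0.23 (adjusted p = 0.000884). No CDL array reached the level of an RDL array at day 6 in either gene.

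Of 23 tested mesenchymal and fibroblast members 5 were below 0 and 0 above 0 (median -0.16), and of 11 lateral plate and cardiac members 4 were below 0 and 0 above 0 (median -0.45). Prrx1 is in both lists. The other lateral plate members were Myl7, an atrial myosin light chain, at -1.31, Mef2c, a factor of muscle and vessels, at -1.0, and Kdr, the VEGF receptor, at -0.82, which passed in 3 of the 12 fits with 1 array left out. The ES cells had been kept on embryonic fibroblasts until 1 passage before differentiation. The fibroblast markers Lum, Dcn, Thy1, Postn, Col1a1 and Col3a1 summed to between 4028 and 5058 on CDL day 6 arrays, 6702 and 7857 on RDL day 6 arrays, 308 and 373 on CDL day 4 arrays and 402 and 462 on RDL day 4 arrays. Col3a1 made up most of the day 6 sums, at 3715, 4828 and 4393 in CDL and 6094, 7013 and 7276 in RDL. Dcn and Thy1 overlapped between the media at day 6, so the sums do not show a shift common to the markers. Lum and Postn, a matrix protein picked out after its value was seen, passed below 0, Postn at -0.61 and in 3 of the 12 fits with 1 array left out, and the other 4 did not pass. Postn passed the filter through the RDL day 6 arrays alone, so its separation was fixed by the filter. The part of such cells in these results was not tested.

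Fli1, an ETS factor of blood and endothelium, read 25.6, 12.2 and 24.4 in CDL day 6 cells, against 219, 281 and 269.9 in RDL day 6 cells. At day 4 it lay between 7.15 and 9.19 on all 6 arrays. The interaction of -3.0 ± 0.2 (adjusted p = 4.62e-06) stood beside a day 6 difference of -3.03 ± 0.14. In the endothelium and blood list 8 of 18 members were tested, of which 2 were below 0 and 1 above 0. Emcn, an endothelial sialomucin, read 10.3, 10 and 10.9 in CDL day 6 cells, against 58.8, 32.9 and 36.3 in RDL day 6 cells (interaction -1.3 ± 0.18, adjusted p = 0.000774), and Kdr was the other. Fli1 and Emcn passed the filter through the RDL day 6 arrays alone, so the separation of that group was fixed by the filter. Kdr passed in 3 of the 12 fits with 1 array left out. Lmo2, a cofactor of blood and endothelial development, went the other way: it read 418, 326 and 346 in CDL day 6 cells, against 92.4, 79.4 and 84.5 in RDL day 6 cells, with an interaction of 1.98 ± 0.21 (adjusted p = 9.15e-05). The defining endothelial markers Pecam1, Cdh5 and Tek lay at or below the array median on all 12 arrays.

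Other genes with large interactions below 0 encode receptors, matrix proteins and regulators. Tgfbi, a matrix protein induced by TGF-β, read 350.1, 505 and 396 in CDL day 6 cells, against 1751, 2884 and 3111 in RDL day 6 cells, with an interaction of -2.71 ± 0.28 (adjusted p = 7.28e-05). Asb4, a substrate adaptor of ubiquitin ligases, read 115, 94.2 and 141 in CDL day 6 cells, against 1371, 976 and 1121 in RDL day 6 cells, with an interaction of -2.75 ± 0.23 (adjusted p = 2.19e-05). Epha3, an ephrin receptor, read 15, 15.4 and 20.8 in CDL day 6 cells, against 173, 136 and 115 in RDL day 6 cells, with an interaction of -2.41 ± 0.16 (adjusted p = 4.62e-06). In all 3 genes every RDL day 6 array lay above every other array. Epha3 passed the filter through these RDL day 6 arrays alone, so for Epha3 this was fixed by the filter. Mc2r, the receptor of the hormone ACTH, averaged 44.2 ± 7.32 in CDL and 240.4 ± 13.2 in RDL at day 6 (SD), and had an interaction of -2.08 ± 0.14 (adjusted p = 4.62e-06). Mir99ahg, the transcript that hosts the let-7c and miR-99a cluster, averaged 14.2 ± 4.4 in CDL and 114 ± 31.9 in RDL at day 6, with an interaction of -2.18 ± 0.22 (adjusted p = 6.65e-05). Amot (angiomotin), which binds the YAP cofactor, averaged 479 ± 73.7 in CDL and 1541 ± 264 in RDL at day 6. It was bright at day 4 too, at 1339.8 ± 101 in CDL and 995 ± 36.6 in RDL, with an interaction of -2.08 ± 0.19 (adjusted p = 4.84e-05).

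Nid1, a protein of basement membranes, was the single gene of the 30 named by size that did not pass in every fit with 1 array left out. It read 87.5, 126 and 118 in CDL day 6 cells, against 314, 505 and 549.8 in RDL day 6 cells, and at day 4 378, 108 and 91.3 in CDL and 116, 124 and 134 in RDL. The interaction of -2.21 ± 0.53 (adjusted p = 0.0323) passed in 5 of 12 such fits. It did not pass without CDL day 6 replicate 1 or 3, RDL day 6 replicate 2 or 3, or any 1 of the RDL day 4 arrays, where it lay between -2.26 and -2.06, and was -1.61 (adjusted p = 0.00675) without the array at 378. On all 6 day 4 arrays 7 of the 15 genes named below 0 lay at or below the array median, where a difference between dim signals is compressed by the added constant. They were Fli1, Epha3, Lum, Mir99ahg, Spink1, Mc2r and Prrx1. Fli1, Epha3, Mir99ahg, Emcn, Fgf5, Sox17 and Postn lay above the array median on the 3 RDL day 6 arrays alone. These genes passed the filter only through the group in which they were high, so its separation from the other groups was fixed by the filter. Besides the RDL day 6 arrays, Otx2 exceeded the array median on CDL day 4 replicate 1 alone. Lum did so on CDL day 6 replicates 1 and 3, and Hhip on CDL day 6 replicate 3. Without the RDL day 6 arrays none of these would have passed, so the filter favoured the separation of that group. Of the 300 genes below 0, 44 were at or below the median on all day 4 arrays and 40 on all day 6 arrays, against 203 and 228 of the 11898 genes tested.

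**Figure D4:**
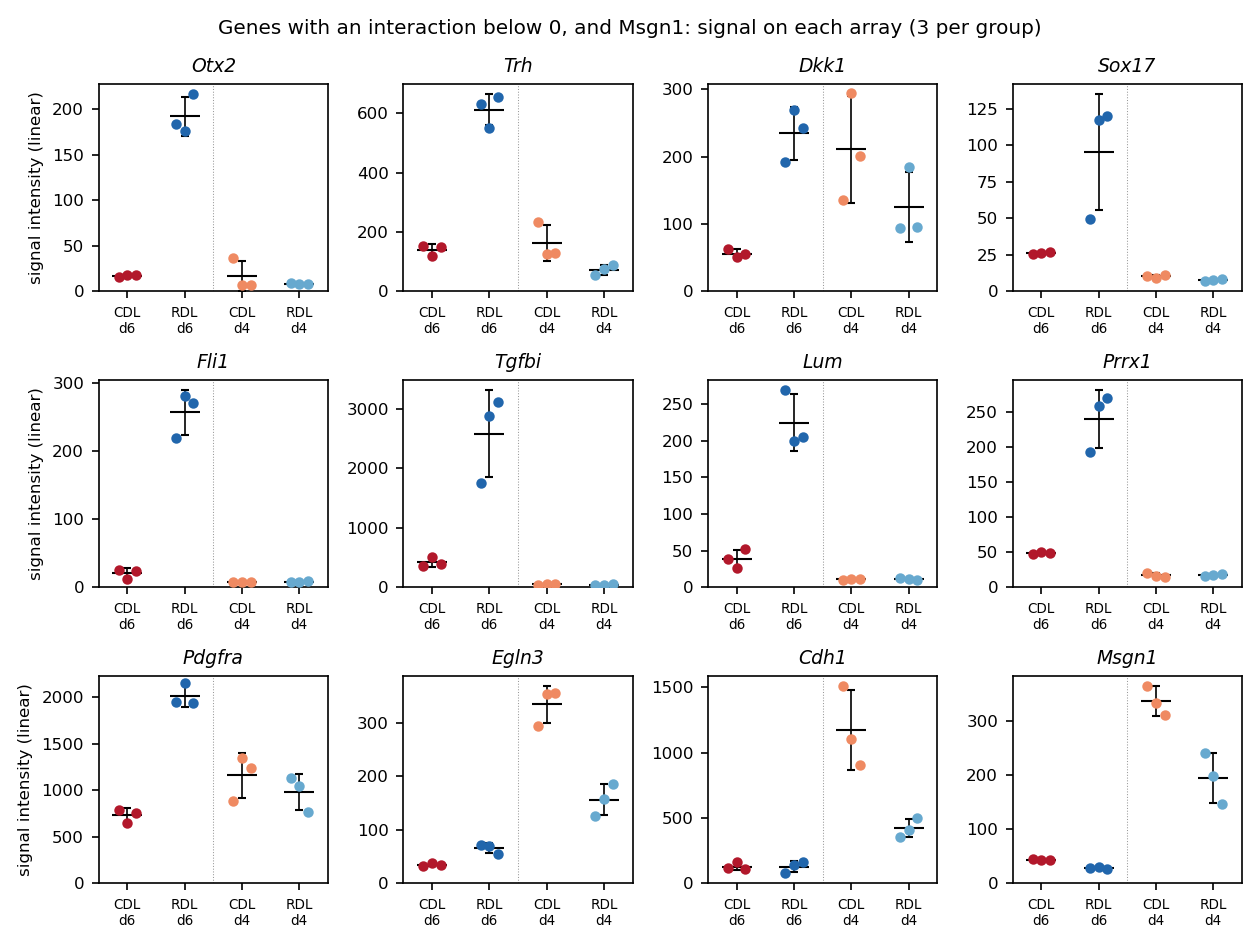
Signal intensity on a linear scale on each array (points) for 11 genes with an interaction below 0 and for Msgn1, with the mean and SD of the 3 arrays of each group (bars), in the order CDL day 6, RDL day 6, CDL day 4, RDL day 4. Otx2, Fli1, Tgfbi, Lum and Prrx1 are high on the 3 RDL day 6 arrays, Egln3 and Cdh1 are highest in CDL day 4 cells, and Msgn1 is higher in CDL than in RDL at both days.

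Some epithelial and pluripotency genes below 0 were called between the media at day 4 only. Cdh1 (E-cadherin) read 1512, 1104 and 906 in CDL day 4 cells, against 358, 411 and 499 in RDL day 4 cells. At day 6 the media overlapped, with 116, 159.9 and 106 in CDL and 82.7, 139 and 162 in RDL. Its interaction was -1.41 ± 0.33 (adjusted p = 0.0293), and -1.21 without CDL day 4 replicate 1 (adjusted p = 0.0644). The keratins Krt8 and Krt18, which pair in simple epithelia, were called between the media at day 6 and not at day 4. Krt8 read 342, 579 and 382 in CDL day 6 cells, against 875, 802 and 922 in RDL day 6 cells (interaction -1.38 ± 0.24, adjusted p = 0.00504), and Krt18 had an interaction of -0.79 ± 0.19 (adjusted p = 0.0298). With 1 array left out, Cdh1 passed in 4 of 12 fits and Krt18 in 5. Of 12 epithelial members these 3 passed, and 1 passed without CDL day 6 replicate 1 or 3, RDL day 6 replicate 3, CDL day 4 replicate 1 or 2, or RDL day 4 replicate 1 or 2.

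In the pluripotency list 18 of 20 tested members had an interaction below 0 (median -0.8), but 2 passed below 0 and 1 above 0. Of all 11898 genes tested, 5941 lay above 0. The 18 were counted with CDL day 4 replicate 1, the array that carried ES cell markers. Zfp42 read 1505 there, against 88.1 and 60.4 on its mates, and Pou5f1 1277, against 486 and 424. Esrrb differed less, at 78.4, against 63 and 57.9. Klf5, a factor of the naive state, read 1206, 1165 and 655 in CDL day 4 cells, against 309, 526 and 382 in RDL day 4 cells, with an interaction of -1.35 ± 0.35 (adjusted p = 0.0433) and -1.2 without CDL day 4 replicate 1 (adjusted p = 0.0984). Lefty1, an inhibitor of Nodal, had an interaction of -0.97 ± 0.23 (adjusted p = 0.032) and -0.88 without that array (adjusted p = 0.0726). Klf4, the member above 0, read 434, 544 and 488 in CDL day 6 cells, against 91.4, 114 and 161 in RDL day 6 cells, with an interaction of 1.68 ± 0.38 (adjusted p = 0.0236). When any 1 array was left out, Klf5 passed in 4 of 12 fits, Lefty1 in 4 and Klf4 in 6. Nanog, at -1.58 ± 1.25, did not pass (adjusted p = 0.667). Of the 95 genes below 0 called at day 4 only, 77 were still called without CDL day 4 replicate 1, and in 23 (24.2%) the ES mean was over 2 times the RDL day 4 mean, against 8.73% of all genes. The part of ES cells in these results was not tested.

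Of 22 tested genes of amino acid metabolism and the integrated stress response, 6 were above 0 and 0 below 0, with a median of 0.42, and all 6 were higher in CDL than in RDL at day 6. Nupr1, a stress-induced chromatin protein, read 839, 446 and 722 in CDL day 6 cells, against 72.7, 44.9 and 39.6 in RDL day 6 cells. The day 4 signals were 101, 63.9 and 56.4 in CDL and 49.8, 61.9 and 44.7 in RDL. The CDL day 6 arrays stood above the other 9 sorted arrays, while the unsorted ES arrays read 592, 658 and 589, with a day 6 difference of 3.38 ± 0.25 and an interaction of 2.98 ± 0.35 (adjusted p = 0.000214). Slc7a3, a transporter of cationic amino acids, read 525, 373 and 459 in CDL day 6 cells, against 133, 97.8 and 109 in RDL day 6 cells, with an interaction of 1.67 ± 0.34 (adjusted p = 0.0127). Psph, the last enzyme of serine synthesis, had an interaction of 1.23 ± 0.28 (adjusted p = 0.0218), and Pck2, the mitochondrial PEP carboxykinase, one of 1.02 ± 0.18 (adjusted p = 0.00522). Psat1 and Phgdh, the other enzymes of serine synthesis, were the remaining members that passed, at 0.68 and 0.56, picked out after their values were seen. In the fits that left 1 array out, Psph passed in 5 of 12 fits and Psat1 in 10. The regulator Atf4 and its target Ddit3 had interactions of 0.2 and 0.35, and neither passed.

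Among glycolysis and hypoxia genes 5 of 22 tested members were below 0 and 1 above 0, with a median of -0.39. Egln3, a prolyl hydroxylase induced by hypoxia, read 33.2, 37.8 and 33.3 in CDL day 6 cells, against 71.7, 69.5 and 55.4 in RDL day 6 cells. At day 4 it read 293, 353 and 355 in CDL, against 126, 158 and 185 in RDL. The media separated in opposite orders at the 2 days, with an interaction of -1.76 ± 0.2 (adjusted p = 0.00015). P4ha2, a collagen prolyl hydroxylase, and the glycolytic enzymes Tpi1, Aldoa and Ldha had interactions of -0.67, -0.56, -0.55 and -0.43, and Aldoc, a brain aldolase, was above 0 at 0.74. Aldoa and Ldha were picked out after their values were seen. With 1 array left out, P4ha2 passed in 2 of 12 fits, Tpi1 in 11, Ldha in 3 and Aldoc in 4. The count below 0 was 3 without CDL day 6 replicate 1 or 3 or any 1 of the 6 day 4 arrays.

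Some of the largest interactions above 0 belonged to genes of no list. Selenop, the plasma carrier of selenium, read 6100.3, 5864 and 6022 in CDL day 6 cells, against 2772, 2093 and 1987 in RDL day 6 cells. Its day 4 signals were 125, 162 and 143 in CDL, against 195, 247 and 239 in RDL. The media separated in opposite orders, with an interaction of 2.03 ± 0.2 (adjusted p = 5.2e-05). Sema3c, a secreted guidance cue, followed the same order, at 223, 172 and 213 in CDL and 116, 92.3 and 93.7 in RDL at day 6 and 24.8, 34 and 36.8 in CDL and 79.1, 86.5 and 109.6 in RDL at day 4 (interaction 2.16 ± 0.21, adjusted p = 5.34e-05). Ptprz1, a receptor tyrosine phosphatase of neural progenitors, averaged 94.7 ± 14.5 in CDL day 4 cells, against 261 ± 5.86 in RDL day 4 cells, its highest group (SD, interaction 1.99 ± 0.17, adjusted p = 2.92e-05). Ppp1r1a, an inhibitor of protein phosphatase 1, averaged 608 ± 176 in CDL and 174 ± 37 in RDL at day 6 (interaction 2.06 ± 0.27, adjusted p = 0.000569).

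At both days 89 genes were called, which is 11.9% of the 749 called at day 6, against 3.40% of all genes called at day 4, and 22.03% of the 404 called at day 4, against 6.30% of all genes called at day 6. Of these 65 had the same direction at both days and 24 opposite directions (47 interaction genes with a replicate block), and the 24 were the genes of both classes counted above, 15 above 0 and 9 below 0. Of the 65, 4 had an interaction: Cyp26a1, Emp1, Mest and Uap1l1, of which Emp1 and Uap1l1 were also named after their values were seen. Emp1, an epithelial membrane protein, was lower in CDL at both days (-1.15 at day 6 and -0.69 at day 4). Mest, an imprinted hydrolase, was also lower at both days, by more at day 4 (-0.43 at day 6 and -1.2 at day 4), and on the untransformed signal its interaction had the opposite sign. Uap1l1, a relative of a nucleotide sugar enzyme, was higher in CDL at both days (0.81 at day 6 and 1.37 at day 4). When any 1 array was left out, Emp1 passed in 5 of 12 fits and Uap1l1 in 1.

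The 30 genes named by size kept their direction with any 1 array left out, as the naming rule required, and 29 of them passed in all 12 such fits. Over those fits Tcf15 lay between 3.21 and 3.63, Uncx between 2.1 and 2.88, Otx2 between -3.35 and -2.68, and Fzd5 between -2.9 and -1.94. The 30 genes had 27 other probe sets with 1 symbol, of which 17 passed in the same direction, 10 did not pass and 0 passed in the opposite direction. Of the 16 bright enough for the filter, 14 passed in the same direction, and the 2 that did not belonged to Nid1 and Amot.

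**Figure D5:**
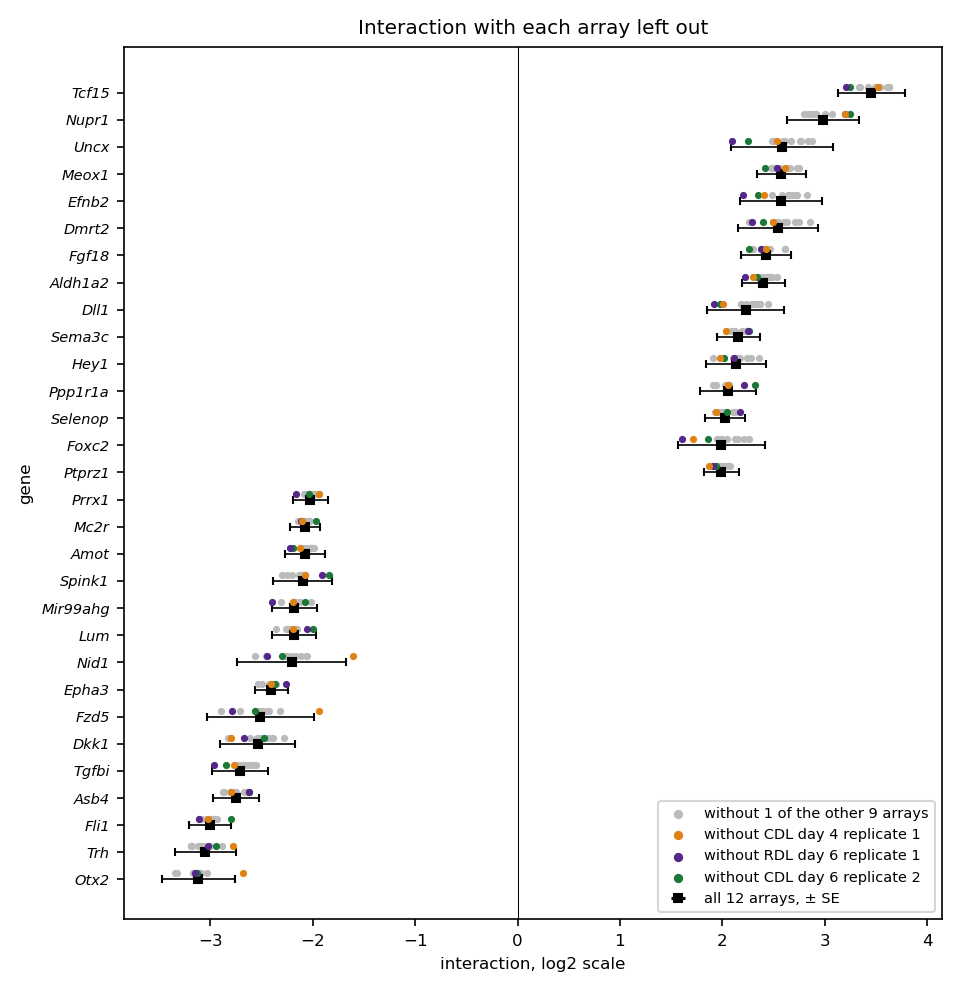
Interaction on the log2 scale (x axis) of the 30 genes named by size (y axis), from all 12 arrays (squares, with SE) and with each array left out (points, 3 arrays coloured). All points of a gene lie on its own side of 0. Nid1 and Fzd5 move nearest to 0 without CDL day 4 replicate 1, to -1.61 and -1.94.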

How the data were processed

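The deposited values are signal intensities of Affymetrix mouse arrays, processed by the authors with MAS5 per the submitters' processing notes, which give no version or scaling; RNA was labelled in 2 cycles per the labels' protocols. The files hold 45101 probe sets, with 64 controls, 34945 with 1 gene symbol in the platform annotation, 932 with several and 9160 with none. From these, the probe set with the highest mean stood for each of 18193 genes, and 11898 genes above the array median on at least 3 of 12 arrays were tested. The other 6295 were left out as dim. Intensities were taken as log2(signal + 12.6), the constant being the median over arrays of the 25th percentile, and fitted to 4 groups without a block with limma 3.58.1 in R 4.3.3 (intensity trend, Benjamini-Hochberg adjustment over all genes, adjusted p under 0.05). The groups share 1 estimate of the spread, with 8 residual degrees of freedom. The number of arrays limits the precision, and so does their uneven spread, with root mean square residuals between 0.0982 and 0.26. Residuals of same-numbered arrays correlated above 0.1 in all 3 pairs of CDL day 4 with RDL day 4, but not in all 3 of CDL day 6 with RDL day 6 (0.614, 0.595 and -0.245), and the labels give no shared culture or day. Members and lists were chosen with earlier results of these data known. Genes were named as the 15 largest interactions past the threshold in each direction that kept their sign with any 1 array left out, passing over clones and predicted genes, up to 4 called members of each of 34 lists, and Pax3 and Msgn1. Scripts were tested on simulated data. Alternatives covered the constant, filter, normalization, probe set choice, array weights, trend, all 15 arrays, a block and arrays left out. The platform annotation's symbols were used as given, and promoters came from the RefSeq table.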

Additional observations from a re-analysis of the deposited data

Results flagged for a closer look

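Each called gene named by the rule is given here because its CDL minus RDL difference was itself tested to differ between day 6 and day 4, and line, strain and sort reporter cannot be told apart from day. The values are the interactions on the log2 scale that lay nearest 0 when any 1 of the 12 arrays was left out. Among the 15 named above 0 by size these were Tcf15 3.21, Nupr1 2.8, Uncx 2.1, Meox1 2.42, Efnb2 2.2, Dmrt2 2.26, Fgf18 2.26, Aldh1a2 2.22, Dll1 1.92, Sema3c 2.04, Hey1 1.91, Ppp1r1a 1.91, Selenop 1.93, Foxc2 1.61 and Ptprz1 1.87. Below 0 by size they were Otx2 -2.68, Trh -2.78, Fli1 -2.8, Asb4 -2.62, Tgfbi -2.55, Dkk1 -2.28, Fzd5 -1.94, Epha3 -2.26, Nid1 -1.61, Lum -2.0, Mir99ahg -2.02, Spink1 -1.84, Amot -1.99, Mc2r -1.96 and Prrx1 -1.94.

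Among Pax3 and the genes named from the lists, the values above 0 lying nearest to it were Pax3 1.48, Hoxb1 0.96, Mesp1 1.12, Myf5 1.05, Eya1 0.88, Nrarp 1.38, Heyl 0.83, Nkd1 1.07, Crabp1 1.2, Dhrs3 0.99, Shh 1.17 and Hoxd1 0.94. Others above 0 were Klf4 1.43, Zic2 1.53, Ncam1 1.17, Lmo2 1.83, Aldoc 0.64, Slc7a3 1.47, Psph 1.08, Pck2 0.92, Plk2 0.86, Ddit4l 0.63, Fosb 1.51, Igf2 0.68 and Mest 0.68. Below 0 the nearest values were Evx1 -0.78, Fgf5 -1.36, Mixl1 -0.79, Sfrp1 -1.28, Crabp2 -0.72, Hhip -0.71, Klf5 -1.18, Lefty1 -0.78, Map2 -1.16, Snai2 -1.8, Myl7 -1.14, Mef2c -0.93, Kdr -0.69 and Emcn -1.1. Others below 0 were Sox17 -1.38, Cdh1 -1.21, Krt8 -1.24, Krt18 -0.71, Pdgfra -1.51, Egln3 -1.63, P4ha2 -0.57, Tpi1 -0.49, Mki67 -0.65, Dlk1 -1.75 and Peg3 -0.74. None changed sign with 1 array left out, while 21 of the 80 lost the threshold in at least 1 alternative.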

How the results depend on the processing

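The interaction counts of 213 genes above 0 and 300 below 0 became 1577 and 1799 with array weights, and with 2 arrays (CDL day 4 replicate 1 and RDL day 6 replicate 1) left out 370 and 521. With CDL day 6 replicate 2 left out as well, a choice made after the data were seen, they were 1357 and 1562. With 1 array left out they lay between 125 and 378 above 0 and between 197 and 520 below 0, and a filter at the 75th percentile, which tests fewer genes, left 169 below 0. The 749 genes called at day 6 became 3960 with weights, 1372 without 2 arrays and 3444 without 3, and 504 to 1209 with 1 array left out. The 404 called at day 4 became 1495 with weights, 1003 without 3 arrays and 229 under the stricter filter, and 230 to 600 with 1 array left out. Genes called in opposite directions at the 2 days, 24, became 329 with weights, 40 without 2 arrays, 216 without 3 and 15 to 47 with 1 array left out. The percentage called at day 4 only, 28.3, became 15.5 with weights and 12.9 without 3 arrays. The cause of these shifts was not tested. Of 18 residual correlations of same-numbered arrays 15 exceeded 0.1, from -0.245 to 0.614, and 16 were highest with the own number, a hint at pairing from the data that the labels do not give. With a replicate block the interaction was called in 309 genes above 0 and 388 below 0, and 1052 genes were called at day 6, 552 at day 4 and 47 in opposite directions. Of 80 called named genes 59 passed in every refit. Over 2065 comparisons of named genes with alternatives, 1917 kept direction and side of the threshold, 146 lost the threshold, and 2 turned sign, Hoxb1 (-408) and Mest (-1208), both on the untransformed signal. Dim signals at day 4 limit what the interaction can show for genes near background.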

Other observations

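Neural genes did not share a direction, with 2 of 13 tested members above 0 and 1 below 0. Zic2, a zinc finger factor of the epiblast and neural plate, read 137, 186 and 110.1 in CDL day 6 cells, against 50.8, 66 and 48.3 in RDL day 6 cells, with an interaction of 1.72 ± 0.25 (adjusted p = 0.00105, limma). Ncam1, a cell adhesion molecule, was also above 0 (1.42 ± 0.28, adjusted p = 0.0104). Map2, a protein of neuronal microtubules, was higher in CDL than in RDL at day 4, with 65.3, 56 and 37.8 in CDL and 17, 24.4 and 18.4 in RDL, and had an interaction of -1.3 ± 0.2 (adjusted p = 0.00192). Map2 passed the filter through the CDL day 4 arrays alone, so the separation of that group was fixed by the filter. Sox1, Pax6, Sox2 and Tubb3 summed to between 282 and 362 on CDL day 6 arrays and 162 and 297 on RDL day 6 arrays, and the part of neural cells in these values was not tested. Shh, the hedgehog ligand of notochord and floor plate, read 136, 367 and 207 in CDL day 6 cells, against 47, 64.7 and 64.9 in RDL day 6 cells (interaction 1.53 ± 0.34, adjusted p = 0.0217, passing in 9 of the 12 fits with 1 array left out), while Hhip, a hedgehog antagonist, was lower in CDL at day 6 (interaction -0.79 ± 0.16, adjusted p = 0.0138). Hhip passed the filter only with the RDL day 6 arrays, so the filter favoured this separation.

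Imprinted genes divided, with 2 of 20 tested members above 0 and 2 below 0. Dlk1, a Notch ligand relative made from the paternal allele, read 216, 374 and 255 in CDL day 6 cells, against 741, 1511 and 1476 in RDL day 6 cells, with an interaction of -1.93 ± 0.36 (adjusted p = 0.00707). Peg3, a zinc finger gene, was also lower in CDL at day 6 (interaction -0.81 ± 0.14, adjusted p = 0.00373). Igf2, the growth factor, was lower in CDL at day 4, with 1742, 2414 and 2629 in CDL and 4431, 5131 and 4613 in RDL, and had an interaction of 0.86 ± 0.18 (adjusted p = 0.0171), which lost the threshold without RDL day 4 replicate 2 (0.8, adjusted p = 0.0559). Hoxd1, 1 of the 2 called genes among 13 of Hox groups 1 to 5, was lower in CDL at day 4 (-0.72 ± 0.16, interaction 1.08 ± 0.23, adjusted p = 0.0171). Both Hoxd1 and Hoxb1 lost the threshold without CDL day 6 replicate 1 (adjusted p = 0.0511 and 0.0623) and without RDL day 4 replicate 2 (0.0557 and 0.0866). In Hox groups 6 to 13, 0 of 9 genes passed in limma's fit (3 at an unadjusted p under 0.05). Mki67, a marker of cycling cells, was lower in CDL at day 6 (interaction -0.73 ± 0.15). It was the 1 called gene of 25 in the mitosis list, a count near the 4.31% called over all genes. Fosb, an immediate early gene, was the 1 called of 16 in its list, against 4.31% of all genes, at 1.79 ± 0.34 (adjusted p = 0.00785). The p53 targets Plk2 and Ddit4l had interactions of 0.97 and 0.7, 2 called of 14, against 4.31% of all genes. Plk2 passed in 12 of the 12 fits with 1 array left out and Ddit4l, called between the media at neither day, in 5, failing in the 7 without CDL day 6 replicate 1 or 2, RDL day 6 replicate 3, CDL day 4 replicate 1 or 3, or RDL day 4 replicate 2 or 3, where it lay between 0.63 and 0.7. In the lists of cholesterol synthesis, intermediate mesoderm, metallothioneins and sex chromosome genes limma called 0, with 3 of 17, 3 of 4, 0 of 7 and 0 of 3 members at an unadjusted p under 0.05.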
